A study of Rattus norvegicus with 10 samples.

Results

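A set of 10 enzymes and enzyme partners that make or remove prostaglandins and leukotrienes were followed in the nasal transitional epithelium of rats given N,N-dimethyl-p-toluidine (DMPT) by mouth. The 10 genes, Pla2g4a, Ptgs1, Ptgs2, Ptges, Ptgis, Hpgd, Alox5, Alox5ap, Alox15 and Ltc4s, were taken as every array probe set annotated to 1 of these symbols alone. This gave 13 of the 31042 probe sets tested, or 10 of 14217 genes, and all 10 genes were measured. Ptgs1, Ptges and Hpgd had 2 probe sets and the other 7 genes had 1.

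DMPT is an aromatic amine used to speed the setting of acrylic cements. The DMPT group was made up of 5 male F344/N rats, aged 5 to 6 weeks at the start, that received 120 mg/kg/day in corn oil by gavage for 5 days. The vehicle group was made up of 5 male F344/N rats of the same age that received corn oil alone on the same schedule. Transitional epithelium was cut from sections of the nasal cavity by laser capture, its RNA was amplified, and the labels give 1 animal for each array. Animals were housed in pairs, which animals shared a cage is not stated in these sources, and the arrays were treated as independent.

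Prostaglandins and leukotrienes are made from arachidonic acid. Phospholipase A2 frees the acid from membranes. Cyclooxygenases turn it into prostaglandin H2, from which terminal synthases make prostaglandin E2, prostacyclin and others. 15-hydroxyprostaglandin dehydrogenase takes prostaglandin E2 out of action by oxidising it. In the other branch 5-lipoxygenase, helped by its activating protein, makes leukotriene A4, and leukotriene C4 synthase joins this to glutathione. In airway mucosa these mediators act on blood flow, secretion, sensory nerves and the repair of the epithelium, and white blood cells and tuft cells as well as surface epithelium can make them.

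The 250 bases upstream of the annotated start are shown for Hpgd, the member with a probe set that fell, and for Ptgs2, the inducible cyclooxygenase whose promoter is the best studied of the family. Both are on assembly GRCr8 from RefSeq, read 5′ to 3′ on the strand of the gene. Hpgd lies on the minus strand at chr16:39034832-39035081 and Ptgs2 on the plus strand at chr13:64713813-64714062. Capitals mark matches to a searched motif on either strand.
Hpgd: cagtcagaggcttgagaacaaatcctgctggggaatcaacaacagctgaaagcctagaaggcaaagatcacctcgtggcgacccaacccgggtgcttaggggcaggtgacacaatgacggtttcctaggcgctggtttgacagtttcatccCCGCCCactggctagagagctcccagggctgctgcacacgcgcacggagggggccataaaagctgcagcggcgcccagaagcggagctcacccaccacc
Ptgs2: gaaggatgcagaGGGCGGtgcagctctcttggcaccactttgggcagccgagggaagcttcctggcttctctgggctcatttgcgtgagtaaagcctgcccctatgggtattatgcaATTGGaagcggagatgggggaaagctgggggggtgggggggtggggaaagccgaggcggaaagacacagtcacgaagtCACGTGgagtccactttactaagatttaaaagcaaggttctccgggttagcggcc

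The motifs searched were the TATA box (TATAAA), the E-box (CACGTG), the cAMP response element (TGACGTCA), the AP-1 element (TGANTCA), the core of the antioxidant response element (TGACNNNGC), the CCAAT box (CCAAT) and the GC box (GGGCGG). An entry was found for 7 of the 10 members, of which 4 held a GC box. None of the matches in the 2 windows shown overlapped. In the Hpgd window the GC box was the only match, and it began 99 bases before the start. The Ptgs2 window held a GC box beginning 238 bases before the start, a CCAAT box on the other strand at 133 bases and an E-box at 55 bases. Of 33469 promoter windows of this length, 30.5% held a GC box, 34% a CCAAT box and 5.59% an E-box. The shares were 12.9% for the TATA box, 1.59% for the cAMP response element, 6.34% for AP-1 and 10.1% for the antioxidant core. These matches describe letters only, and no binding was measured here.

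The captured tissue carried epithelial transcripts. Epcam, an adhesion molecule of epithelial cells, had a mean log2 level of 13.5 in DMPT rats and 13.6 in vehicle rats. Krt18, a keratin of simple epithelium, had 13.7 in DMPT rats and 13.6 in vehicle rats. The fibroblast gene Col1a1 was also bright, at 13.2 in DMPT rats and 13.3 in vehicle rats. Pearson correlations between pairs of arrays ran from 0.959 to 0.992. Vehicle replicate 2 stood apart on the second principal component, which held 18.3% of the variance. On the first component, which held 41.0%, vehicle replicate 2 scored 63.8. The other vehicle arrays scored from 15.1 to 32.1 there, and the DMPT arrays from -43.0 to -22.7. As a sign of RNA quality, the log2 excess of 3′ over 5′ signal in the controls for GAPDH and beta-actin was 1.10 ± 0.19 in DMPT rats and 1.28 ± 0.13 in vehicle rats (SD, n = 5 each). These groups overlapped (two-sided exact permutation test, p = 0.143). Differences below are log2 DMPT minus vehicle, with their standard error from limma and p-values adjusted by Benjamini-Hochberg over all 31042 probe sets. A probe set was called at an adjusted p under 0.05.

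After DMPT, Hpgd, which encodes the enzyme that inactivates prostaglandin E2, fell 1.78-fold by its probe set 1376191_at, while its other probe set, 1387631_at, did not pass. Alox15, the lipoxygenase that adds oxygen near the far end of arachidonic acid, rose 2.19-fold. The remaining 11 of the 13 member probe sets did not pass, among them those of both cyclooxygenases. Hpgd 1376191_at was the dimmer of the 2 Hpgd probe sets. By the brightest probe set of each gene, the rule used for other genes below, 1 member was higher and 0 were lower. The 2 called probe sets were 15.4% of the members' 13, and over all probe sets 11.1% were called, 5.37% higher and 5.74% lower. The median difference of the 13 was 0.16, and that of all probe sets was -0.017. At an unadjusted p under 0.05, 4 member probe sets were higher and 2 were lower, together 46.2% of the 13, and over all probe sets 24.8% reached it. Differences were above 0 for 10 of the 13, or 76.9%, where the share over all probe sets was 46.7%. These shares compare unlike sets. Of the 13, 0 were among the dimmest 25% of all probe sets, and 3 genes were counted by 2 probe sets each.

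**Figure D1:**
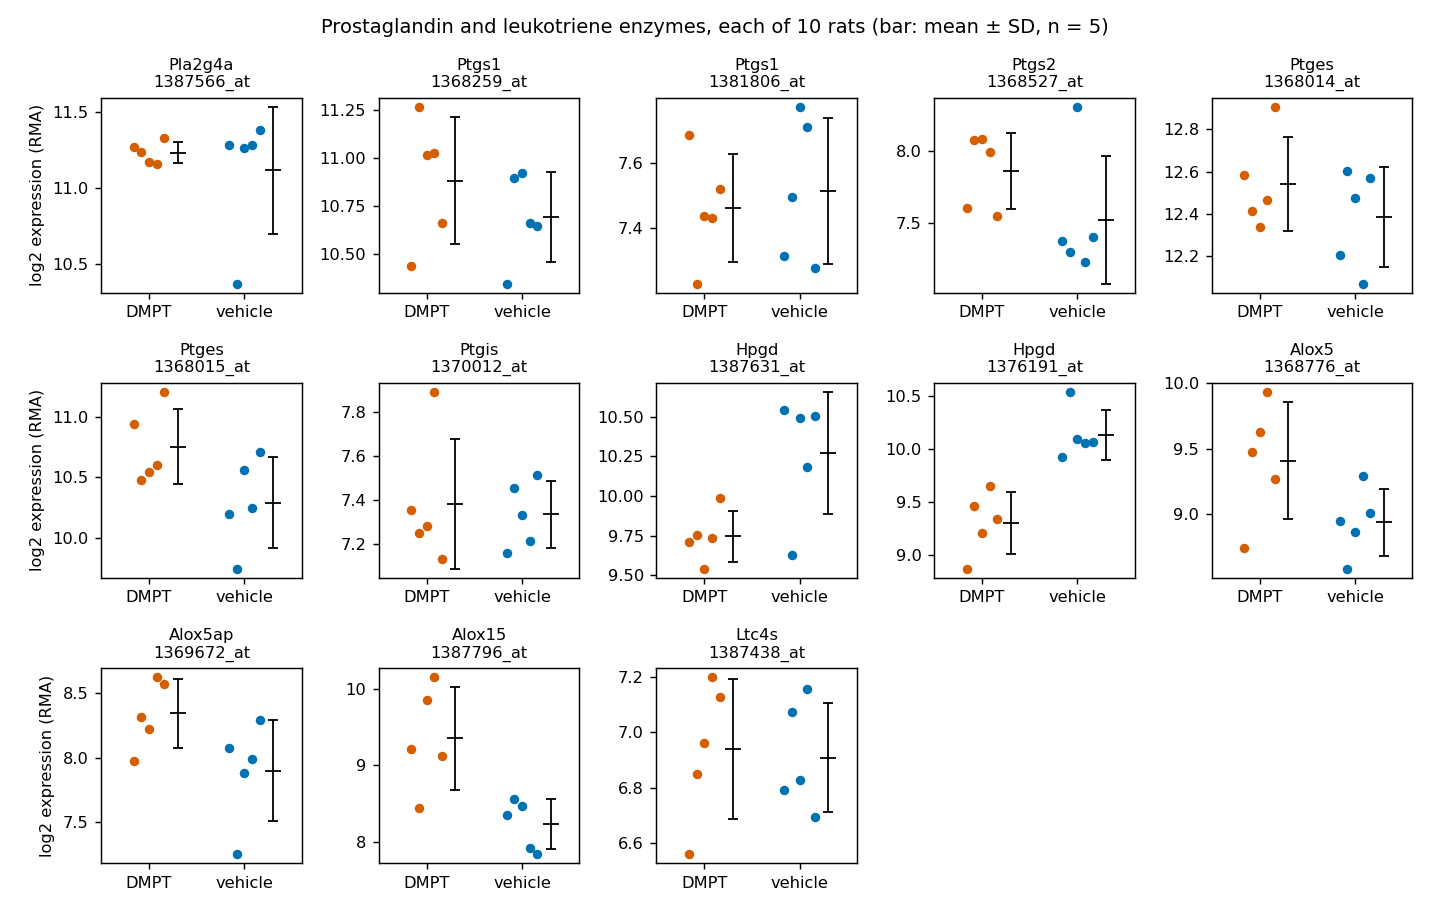
Log2 expression (RMA) of each member probe set in each of 10 rats, with DMPT on the left in orange and vehicle on the right in blue; the bar beside the points is the mean ± SD of 5 arrays, and each panel has its own axis. The Hpgd probe set 1376191_at is the member probe set whose groups do not overlap, with DMPT rats between 8.87 and 9.65 and vehicle rats between 9.92 and 10.5.

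The release of arachidonic acid begins with Pla2g4a, the cytosolic phospholipase A2 that prefers this fatty acid. Its log2 values were 11.27, 11.24, 11.17, 11.16 and 11.33 in DMPT rats, and 11.29, 10.37, 11.27, 11.28 and 11.38 in vehicle rats. The 5 DMPT arrays and 4 of the vehicle arrays lay close together, and vehicle replicate 2 lay well below them. The difference was 0.12 ± 0.17, with a 95% interval from -0.26 to 0.50 (limma adjusted p = 0.740). Without vehicle replicate 2 the estimate was -0.068 (limma adjusted p = 0.612).

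Ptgs1 encodes the constitutive cyclooxygenase. The probe set 1368259_at read 10.44, 11.27, 11.02, 11.03 and 10.66 in DMPT rats, and 10.35, 10.90, 10.93, 10.66 and 10.64 in vehicle rats. DMPT replicates 2, 3 and 4 were above every vehicle array and the other 2 were within the vehicle range, giving a difference of 0.19 ± 0.17 (limma adjusted p = 0.546). Leaving out DMPT replicate 2 gave 0.092, leaving out vehicle replicate 1 gave 0.10 and leaving out DMPT replicate 1 gave 0.30. The RNA quality measure in the fit gave 0.40, and none of these passed. The other probe set, 1381806_at, ranged from 7.23 to 7.69 in DMPT rats and from 7.28 to 7.77 in vehicle rats, with a difference of -0.052 ± 0.12 (limma adjusted p = 0.853). Neither probe set passed, and their intervals reached at most 1.46-fold higher in DMPT rats.

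Ptgs2 encodes the cyclooxygenase that growth factors and cytokines induce in many cells. Its log2 values were 7.60, 8.08, 8.09, 7.99 and 7.55 in DMPT rats, and 7.38, 7.29, 8.31, 7.22 and 7.40 in vehicle rats. All 5 DMPT arrays were above 4 of the vehicle arrays, and vehicle replicate 3 was above them all. The difference of 0.34 ± 0.20 did not pass (limma adjusted p = 0.347), and its interval ran from -0.11 to 0.79, which includes a rise of up to 1.73-fold. Without vehicle replicate 3 the difference was 0.54 and passed (limma adjusted p = 0.0320). Without any other single array it did not pass, and with array weights it was 0.22.

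Ptges encodes the microsomal prostaglandin E synthase that works with the inducible cyclooxygenase. Its probe set 1368015_at read 10.94, 10.48, 10.54, 10.61 and 11.21 in DMPT rats, and 10.20, 9.75, 10.56, 10.24 and 10.71 in vehicle rats. DMPT replicates 1 and 5 were above every vehicle array and the other 3 overlapped with vehicle. The difference was 0.46 ± 0.19 and did not pass (limma adjusted p = 0.158). With the RNA quality measure in the fit it was 0.13, and with array weights 0.29. The probe set 1368014_at ranged from 12.3 to 12.9 in DMPT rats and from 12.1 to 12.6 in vehicle rats, and differed by 0.16 ± 0.14 (limma adjusted p = 0.552). It was 0.065 without DMPT replicate 5, and 0.078 both without vehicle replicate 4 and with the RNA quality measure in the fit. Ptgis, the prostacyclin synthase of vessel walls, ranged from 7.13 to 7.89 in DMPT rats and from 7.16 to 7.51 in vehicle rats. Its difference was 0.047 ± 0.14 (limma adjusted p = 0.887), and DMPT replicate 4 was its highest array.

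Hpgd encodes 15-hydroxyprostaglandin dehydrogenase. The probe set 1376191_at read 8.87, 9.46, 9.21, 9.65 and 9.34 in DMPT rats, and 9.92, 10.54, 10.10, 10.06 and 10.06 in vehicle rats. Every DMPT array was below every vehicle array. It was the only one of the 13 member probe sets whose groups did not overlap, and over all probe sets 11% had groups that did not overlap. The difference was -0.83 ± 0.16, with a 95% interval from -1.17 to -0.49, or 1.78-fold lower (limma adjusted p = 0.00588). It passed without each of the 10 arrays in turn, with differences between -0.92 and -0.72 and adjusted p between 0.00584 and 0.0194.

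The second Hpgd probe set, 1387631_at, read 9.71, 9.75, 9.54, 9.73 and 9.99 in DMPT rats, and 10.54, 9.63, 10.49, 10.18 and 10.50 in vehicle rats. DMPT arrays were below 4 of the vehicle arrays, and vehicle replicate 2 lay among them. The difference was -0.52 ± 0.17, or 1.44-fold lower, and did not pass with all arrays (limma adjusted p = 0.0714). Without vehicle replicate 2 it was -0.68 and passed (limma adjusted p = 0.00290). Vehicle replicate 2 was thus the highest vehicle array for one Hpgd probe set and the lowest for the other, and the annotation does not say which part of the transcript either one covers. For the 3 genes with 2 probe sets the group difference was compared between the probe sets by a two-sided exact permutation test over 252 labelings. The gap between the 2 Hpgd probe sets differed by 0.31 (exact p = 0.413, adjusted over 3 genes 0.413), that of Ptges by -0.31 (exact p = 0.0794, adjusted 0.238) and that of Ptgs1 by 0.24 (exact p = 0.357, adjusted 0.413).

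Synthesis and breakdown of prostaglandin E2 can be set beside each other within an array as log2 Ptges minus log2 Hpgd. Its absolute size has no meaning because probe sets differ in brightness, and the pair was chosen with these values known, so it is a description. For Ptges 1368015_at over Hpgd 1376191_at it ranged from 0.96 to 2.08 in DMPT rats and from -0.79 to 0.65 in vehicle rats. For Ptges 1368015_at over Hpgd 1387631_at it ranged from 0.72 to 1.23 in DMPT rats and from -0.34 to 0.21 in vehicle rats. For Ptges 1368014_at over Hpgd 1376191_at it ranged from 2.82 to 3.72 in DMPT rats and from 2.01 to 2.51 in vehicle rats. Both pairings with Hpgd 1376191_at hold a probe set whose groups were already apart on its own. For Ptges 1368014_at over Hpgd 1387631_at, DMPT rats ranged from 2.66 to 2.92 and vehicle rats from 1.66 to 2.97, where vehicle replicate 2 was the high array. The mean differences of the 4 pairings were between 0.68 and 1.29, and the pairings share probe sets. Each is the Ptges difference minus the Hpgd difference given above, so the pairings add no evidence of their own. Neither Ptges probe set passed.

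**Figure D2:**
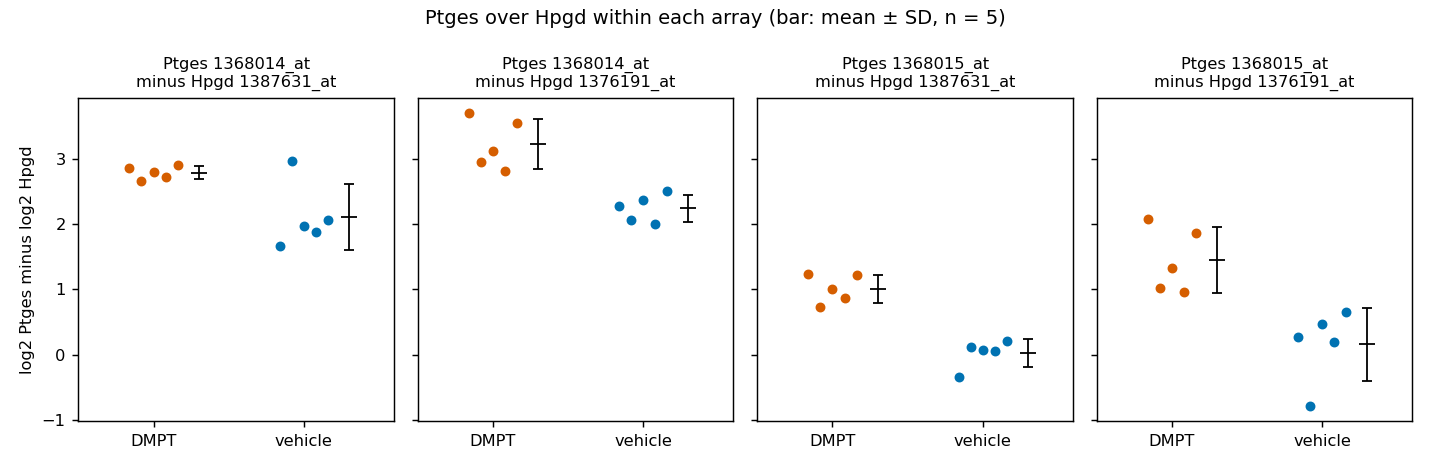
Log2 Ptges minus log2 Hpgd within each array for the 4 pairings of their probe sets, DMPT in orange on the left and vehicle in blue on the right, with the mean ± SD of 5 arrays beside the points. The mean difference is smallest, 0.68, in the first panel, where vehicle replicate 2 reaches the DMPT range, and largest, 1.29, in the last.

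Alox5 encodes 5-lipoxygenase, the first enzyme of leukotriene synthesis. Its log2 values were 8.75, 9.48, 9.63, 9.93 and 9.27 in DMPT rats, and 8.95, 8.58, 8.87, 9.29 and 9.01 in vehicle rats. DMPT replicates 2, 3 and 4 were above every vehicle array, and DMPT replicate 1 lay among the lower vehicle arrays. The difference was 0.47 ± 0.20 (limma adjusted p = 0.171). Without DMPT replicate 1 it was 0.64 and passed (limma adjusted p = 0.0355), and without any other single array it did not pass.

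Alox5ap encodes the membrane protein that hands arachidonic acid to 5-lipoxygenase. It read 7.98, 8.32, 8.22, 8.63 and 8.57 in DMPT rats, and 8.07, 7.25, 7.88, 7.99 and 8.29 in vehicle rats. The ranges overlapped, with 3 DMPT arrays above all vehicle arrays and vehicle replicate 2 lowest, and the difference of 0.45 ± 0.19 did not pass (limma adjusted p = 0.165). It was 0.28 without vehicle replicate 2 and 0.25 with the RNA quality measure in the fit (limma adjusted p = 0.549). Ltc4s, the leukotriene C4 synthase, ranged from 6.56 to 7.20 in DMPT rats and from 6.70 to 7.16 in vehicle rats. Its difference was 0.032 ± 0.14, with an interval from -0.27 to 0.33 (limma adjusted p = 0.925).

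Alox15 encodes the lipoxygenase that is called 12/15-lipoxygenase in mice, and its products include precursors of lipoxins. Its log2 values were 9.22, 8.44, 9.86, 10.16 and 9.12 in DMPT rats, and 8.35, 8.56, 8.47, 7.92 and 7.84 in vehicle rats. DMPT replicates 1, 3, 4 and 5 were above every vehicle array, and DMPT replicate 2 lay inside the vehicle range. The spread within the DMPT rats was the widest of the members in either group, with an SD of 0.67, against 0.33 in vehicle rats. The difference was 1.13 ± 0.29, with a 95% interval from 0.50 to 1.76, or 2.19-fold higher (limma adjusted p = 0.0270). The call was lost without DMPT replicate 3 (1.00, limma adjusted p = 0.0707), DMPT replicate 4 (0.93, 0.0559), vehicle replicate 4 (1.05, 0.0636) or vehicle replicate 5 (1.03, 0.0611). With the RNA quality measure in the fit the difference was 1.22 with an adjusted p of 0.0611 in limma.

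**Figure D3:**
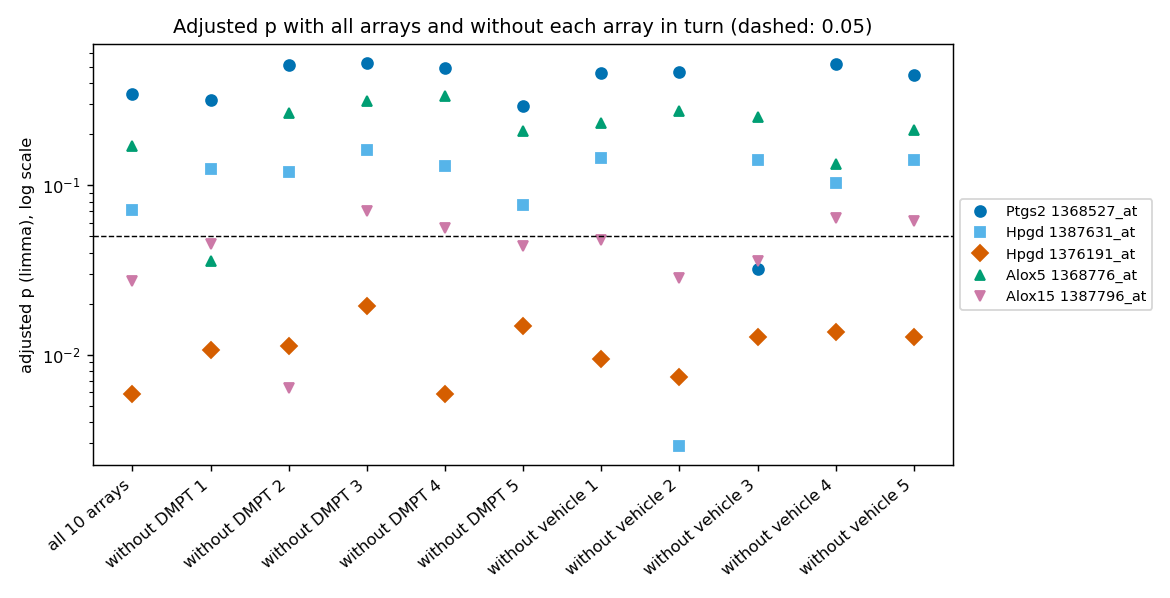
Adjusted p from limma, on a log axis, for 5 member probe sets with all 10 arrays and without each array in turn, with the threshold of 0.05 dashed. Hpgd 1376191_at stays below the line throughout, Alox15 crosses it without 4 of the arrays, and Hpgd 1387631_at, Ptgs2 and Alox5 each fall below it without 1 array (vehicle replicate 2, vehicle replicate 3 and DMPT replicate 1).

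Other genes of the pathway were taken as 49 genes in 6 lists by role, of which 44 were measured, each by its brightest probe set. Of these 44, 10 were higher, 1 was lower and 33 did not pass. Over all 14217 genes 13.9% were called, 7.13% higher and 6.77% lower. The median difference was 0.087 for the 44 genes and -0.0052 for all genes.

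Among 11 genes that free arachidonic acid, 3 were higher and 1 was lower. Pla2g10, a secreted phospholipase A2, ranged from 8.26 to 9.09 in DMPT rats and from 6.92 to 8.08 in vehicle rats, with no overlap, and rose by 1.29 ± 0.23, or 2.45-fold (limma adjusted p = 0.00395). Pla2g12a, another secreted member, rose by 0.38 ± 0.087 (limma adjusted p = 0.0161), and the call was lost without DMPT replicate 3 (limma adjusted p = 0.0503). Mgll, the lipase that frees arachidonic acid from an endocannabinoid, rose by 0.83 ± 0.21 (limma adjusted p = 0.0261). Leaving out any 1 of 6 arrays (DMPT replicates 3, 4 and 5 and vehicle replicates 1, 3 and 4) ended that call, and so did the RNA quality measure in the fit (limma adjusted p = 0.0731). Its probe sets 1370831_at and 1375247_at rose by 1.07 and 0.65, and another, 1375355_at, differed by 0.045.

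Pla2g5, a secreted phospholipase A2, was the lower gene at -0.70 ± 0.17 (limma adjusted p = 0.0222). It was dim, with means of 5.71 in DMPT rats and 6.41 in vehicle rats, among the dimmest 25% of probe sets, and the call was lost without 4 of the 10 arrays (DMPT replicates 2, 3 and 5 and vehicle replicate 4) and with the RNA quality measure in the fit (limma adjusted p = 0.0720). Plaat3, a phospholipase that breaks down organelle membranes in the lens, differed by -0.48 ± 0.18 (limma adjusted p = 0.108), and by -0.66 without vehicle replicate 2 (limma adjusted p = 0.00171). Pla2g2d, also among the dimmest 25% of probe sets, differed by 0.27 ± 0.089 and did not pass.

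Of 6 other prostanoid synthases, Tbxas1, the thromboxane synthase of platelets and macrophages, was higher and none was lower. It ranged from 9.10 to 9.63 in DMPT rats and from 8.47 to 9.13 in vehicle rats, and rose by 0.66 ± 0.15, or 1.58-fold (limma adjusted p = 0.0140). Hpgds, the prostaglandin D synthase of blood-derived cells, differed by 0.63 ± 0.22 and did not pass (limma adjusted p = 0.0983), but passed without vehicle replicate 2 (0.79, limma adjusted p = 0.0256). Hpgds also passed with array weights (0.75, limma adjusted p = 0.027) and with the RNA quality measure in the fit (0.91, limma adjusted p = 0.0325). Its probe set was among the dimmest 25% of probe sets. Ptges3, a co-chaperone with prostaglandin E synthase activity, differed by 0.22 ± 0.099.

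Of 10 measured genes of other lipoxygenases and of leukotriene processing, 3 were higher and 0 lower. Ggt1, the gamma-glutamyl transferase that turns leukotriene C4 into leukotriene D4 and also breaks down glutathione, rose by 2.79 ± 0.23, or 6.92-fold (limma adjusted p = 3.98e-05). It ranged from 10.4 to 11.4 in DMPT rats and from 7.47 to 8.52 in vehicle rats. Mgst3, a microsomal glutathione transferase, rose by 1.99 ± 0.19 (limma adjusted p = 0.000104), and Mgst2, which can make leukotriene C4, rose by 0.85 ± 0.10 (limma adjusted p = 0.000458). None of the 3 overlapped between groups, and over all probe sets 11% had groups that did not overlap. All 3 also act in glutathione metabolism. Dpep2, a dipeptidase that turns leukotriene D4 into leukotriene E4, differed by 0.36 ± 0.17, and Aloxe3, a lipoxygenase of the epidermis, by -0.34 ± 0.19, and neither passed. Aloxe3 differed by -0.20 without vehicle replicate 2.

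Of 6 genes that reduce or carry eicosanoids, 3 were higher and 0 lower. Ptgr1, the reductase that acts on prostaglandin E2 after Hpgd and that also inactivates leukotriene B4, rose by 0.77 ± 0.086 (limma adjusted p = 0.000241). Its mean was 14.3 in DMPT rats and 13.5 in vehicle rats, and array maxima were 14.6 to 14.9, so the size of its rise is uncertain. Cbr1, the carbonyl reductase that converts prostaglandin E2 to prostaglandin F2alpha, rose by 1.04 ± 0.13, or 2.06-fold (limma adjusted p = 0.000413). Abcc4, an exporter of prostaglandin E2, rose by 0.48 ± 0.11 (limma adjusted p = 0.0170).

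Slco2a1, the importer that brings prostaglandins to Hpgd, ranged from 9.13 to 9.44 in DMPT rats and from 9.50 to 10.2 in vehicle rats. The groups did not overlap, but the difference of -0.42 ± 0.13 did not pass (limma adjusted p = 0.0656). Without vehicle replicate 2, its highest array, the difference was -0.30 and passed (limma adjusted p = 0.0430), and with the RNA quality measure in the fit it was -0.24 and did not. Its second probe set, 1387492_at, differed by -0.14 ± 0.13, and Abcc1, an exporter of leukotriene C4, differed by 0.12 ± 0.093. Neither of these passed.

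None of the 7 measured prostanoid receptor genes and none of the 4 measured leukotriene receptor genes passed in limma, and at an unadjusted p under 0.05 there was 1 gene in each list, Ptger2 and Cysltr2. Ptger2, a prostaglandin E2 receptor that raises cyclic AMP, differed by -0.58 ± 0.19 (limma adjusted p = 0.0682) and Tbxa2r, the thromboxane receptor, by -0.13 ± 0.095. Ptger2 passed without DMPT replicate 1 (limma adjusted p = 0.0426) and with the RNA quality measure in the fit (limma adjusted p = 0.0451). Cysltr1 differed by -0.15 without vehicle replicate 2. Cysltr2 and Cysltr1, receptors of the cysteinyl leukotrienes, differed by 0.30 ± 0.096 (limma adjusted p = 0.0705, groups not overlapping) and -0.25 ± 0.15. Cysltr2 passed under 2 of 6 alternatives that kept all arrays (smallest limma adjusted p = 0.0374), and in 0 of the 10 omissions of an array. Of the measured receptor genes, 3 prostanoid receptors and 3 leukotriene receptors were among the dimmest 25% of probe sets, Ptger2, Tbxa2r, Cysltr1 and Cysltr2 among them.

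**Figure D4:**
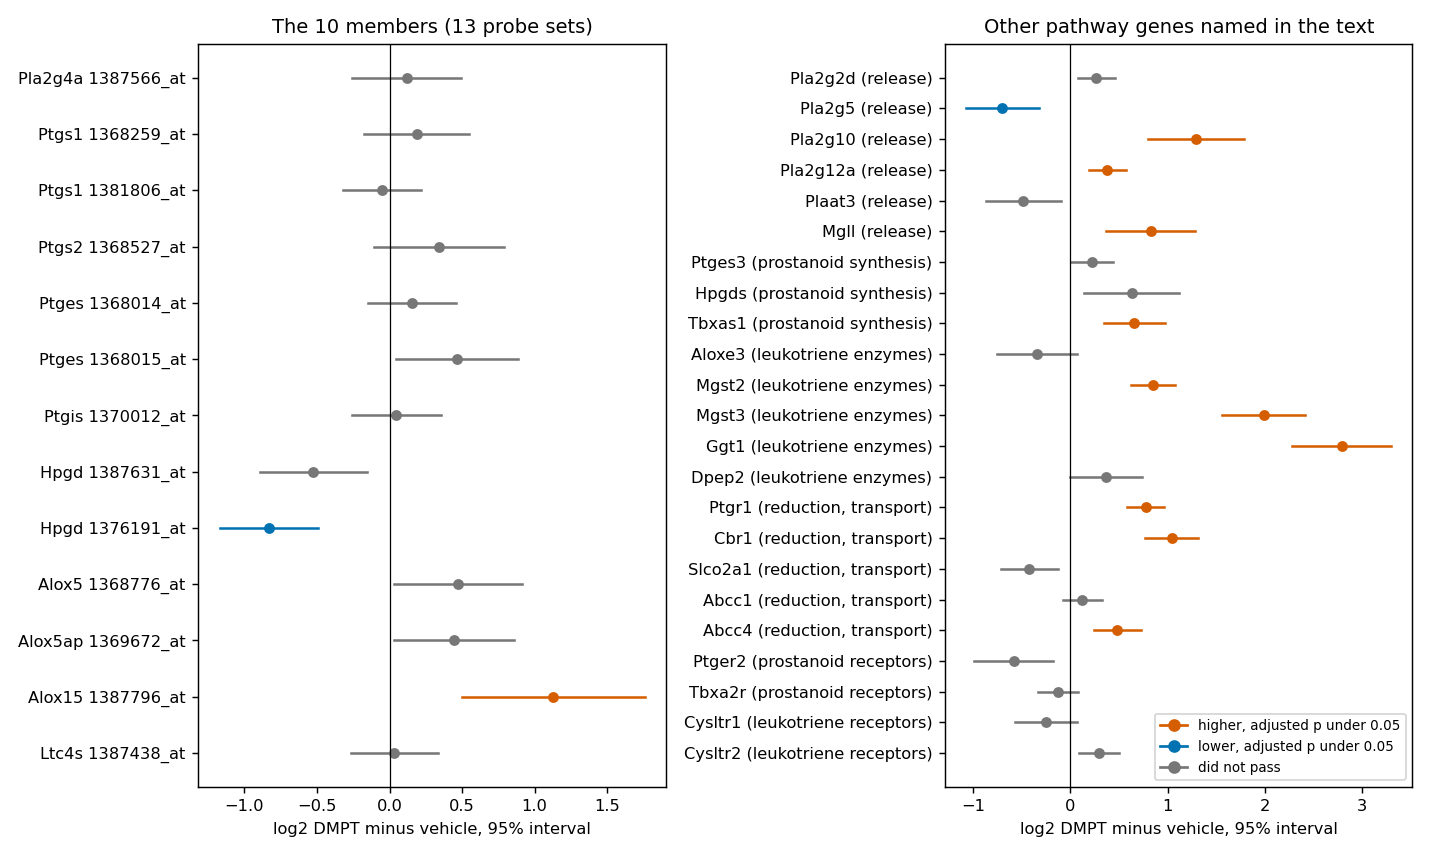
Log2 difference, DMPT minus vehicle, with its 95% interval, for the 13 member probe sets (left) and the other pathway genes named in the text with their role (right); orange marks a rise and blue a fall at an adjusted p under 0.05, and grey marks genes that did not pass. Alox15 and 1 Hpgd probe set pass on the left, and Ggt1, at 2.79, lies farthest from 0 on the right.

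Because several members are also made by cells other than epithelium, markers of such cells are given beside them. In tissue RNA, more cells of a type and more RNA per cell cannot be told apart. Beside the counts below, 7.13% of all 14217 genes were called higher and 6.77% lower. Of 10 macrophage genes, C1qa, C1qb, C1qc, Cd68 and Mrc1 were higher and 0 were lower. Their summed linear level was between 6634 and 9086 in DMPT rats and between 5408 and 6149 in vehicle rats. C1qc, a complement protein, rose by 0.61 ± 0.11 and Aif1, a calcium-binding protein of macrophages, differed by 0.062 ± 0.15. Whether macrophages, or tuft cells and the other cell types below, had a part in the differences of Tbxas1, Alox5, Alox5ap and Alox15 was not tested.

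Of 8 measured endothelial genes, Pecam1, Esam, Kdr, Tie1 and Emcn were higher and 0 were lower, with a summed level between 1491 and 3796 in DMPT rats and between 714.5 and 1609 in vehicle rats. Kdr, a growth factor receptor of endothelium, rose by 2.06 ± 0.38 and Eng, another endothelial receptor, differed by 0.90 ± 0.29. Ptgis, the synthase of vessel walls, differed by 0.047 beside them. Of 7 measured tuft cell genes, Pou2f3 was higher in limma and 3, Pou2f3, Dclk1 and Avil, had an unadjusted p under 0.05, with a summed level between 4595 and 7332 in DMPT rats and between 4718 and 5990 in vehicle rats. Gng13 and Gnat3, signalling proteins of taste and tuft cells, differed by -0.041 ± 0.17 and -0.11 ± 0.12. Dclk1, a kinase of tuft cells, differed by 0.63 (limma adjusted p = 0.0570) by its brightest probe set, and 2 of its other probe sets rose by 0.66 and 0.53.

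Of 9 measured mast cell genes 0 passed in limma and 1, Hdc, had an unadjusted p under 0.05, and 7 were among the dimmest 25% of probe sets. Their summed level was between 687.9 and 1000 in DMPT rats and between 908.3 and 1201 in vehicle rats, and the brightest were Kit and Hdc, a histamine-forming enzyme, at 0.22 ± 0.21 and -1.09 ± 0.37. Of 4 measured eosinophil genes 0 passed in limma and 0 had an unadjusted p under 0.05, with a summed level between 191 and 206 in DMPT rats and between 183.7 and 242.7 in vehicle rats. Epx and Prg2, proteins of eosinophil granules, differed by -0.0075 and -0.042. Of these 4 genes, 3 were among the dimmest 25% of probe sets, Prg2 included, and Epx was not. Eosinophils are a known source of the orthologous lipoxygenase in humans, and their part in the difference of Alox15 was not tested.

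Of 6 measured neutrophil genes Mmp8 was higher at a mean of 5.36 in DMPT rats and 4.81 in vehicle rats, and 5 of the 6 were among the dimmest 25% of probe sets. The summed level of the 6 was between 284.3 and 471.4 in DMPT rats and between 255.1 and 495.3 in vehicle rats. S100a9 and Camp, neutrophil defence proteins, differed by -0.25 ± 0.33 and 0.16 ± 0.11. None of 4 measured platelet genes (Itga2b at -0.16 and Pf4 at 0.39), 6 fibroblast genes (Col1a1 at -0.10 and Col1a2 at 0.038) or 5 smooth muscle genes (Myh11 at -0.28 and Tagln at 0.25) passed in limma, and of these Pf4 had an unadjusted p under 0.05. The summed level of the platelet genes was between 468.1 and 549 in DMPT rats and between 451.4 and 597.4 in vehicle rats. For fibroblast genes it was between 12590 and 25500 in DMPT rats and between 15080 and 24200 in vehicle rats, and for smooth muscle genes between 836.4 and 1916 in DMPT rats and between 924 and 1515 in vehicle rats. Of the 7 epithelial genes, Krt8, Krt7 and Krt5 were higher and 0 were lower, with a summed level between 64630 and 70420 in DMPT rats and between 58810 and 62560 in vehicle rats.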

How the data were processed

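The authors deposited 1 log2 value for each probe set and array, computed by RMA (robust multi-array average: background correction, quantile normalisation and probe summary), per the submitters' processing notes. No RMA version or filter is stated in these sources. There were 31099 probe sets and 10 arrays. After 57 control probe sets were set aside, 20826 of 31042 had 1 gene symbol in the platform annotation, 436 had several and 9780 had none. The extraction text in the labels also gives yields of pooled samples under names that are no group here, and these were not used. No coordinates of probe sets are given because no build is named.

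The fit used lmFit and eBayes of limma 3.58.1, run in R 4.3.3, on all 31042 probe sets without a filter, two-sided. The code was tried on simulated data with independent normal errors. Those data held no outlying array and no difference in RNA quality, so they do not cover such features. A change is on the log2 scale, and fold changes are its antilog. The number of arrays limits the precision. ORIOGEN, the program that the design text names for the original comparison, was not run. Of a gene outside the 10 members, the brightest probe set by mean over all arrays was used.

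The members, lists and tests were chosen with earlier results of these data known. Named genes were the 10 members, every called gene of 6 pathway lists and the 2 smallest p-values among the others of each list, and the 2 brightest genes of each of 10 marker lists. Called marker genes outside that rule (Krt8, Krt7, Krt5, C1qa, C1qb, Cd68, Mrc1, Pecam1, Esam, Tie1, Emcn, Mmp8 and Pou2f3), with Dclk1 and Avil, and the pairing of Ptges with Hpgd, were chosen after their values were seen. Alternatives changed the array scaling, the filter on dim probe sets, the variance moderation, array weights, an RNA quality covariate, a replicate block and the arrays included.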

Additional observations from a re-analysis of the deposited data

Results flagged for a closer look

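In groups of 5, a single array was checked for standing apart from the other 4 by Dixon's ratio, for members and named pathway genes, in 72 groups of values. Chance flags about 1 in 20 groups, and 5 stood out, 4 of them in vehicle replicate 2. For Pla2g4a, vehicle replicate 2 had a log2 value of 10.37, with the other vehicle arrays between 11.27 and 11.38. For Plaat3 it had 12.19, with the others between 12.98 and 13.18. It was high for Hpgd 1376191_at, at 10.54 with the others between 9.92 and 10.1, and for Slco2a1, at 10.2 with the others between 9.5 and 9.65. For Ptgs2, vehicle replicate 3 had 8.31, with the other vehicle arrays between 7.22 and 7.4.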

How the results depend on the processing

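The fall of Hpgd 1376191_at passed under every alternative run, and Alox15 kept its direction under every one and lost its call under 5. With the RNA quality measure as a covariate, the member probe sets that passed were 0 higher and 2 lower, both of Hpgd, and 951 of all probe sets were lower; the 1 lower pathway gene was then Ptger2 in place of Pla2g5. With array weights 2 member probe sets and 2 pathway genes were lower. The count of lower pathway genes was 0 without the dimmest 25% of probe sets and 2 with the mean of all probe sets of a gene. Without each array in turn, the members had 0 to 2 higher and 1 to 2 lower probe sets, the pathway genes had 8 to 12 higher and 0 to 3 lower, and all probe sets had 1137 to 2130 higher and 1022 to 1886 lower. The lowest 2 counts of lower probe sets were 1022 without DMPT replicate 3 and 1147 without DMPT replicate 4. The difference in RNA quality ratio ran from -0.23 to -0.12 in the same omissions, and was -0.33 from GAPDH alone and -0.031 from beta-actin alone. Estimates near 0 changed sign. Pla2g4a was -0.033 with array weights and -0.090 with the covariate, and ran from -0.068 to 0.18 over the omissions. Those ranges were -0.11 to 0.012 for Ptgs1 1381806_at, -0.080 to 0.11 for Ptgis and -0.033 to 0.13 for Ltc4s. The cause of these changes was not tested.

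The titles give both groups the numbers 1 to 5, and no meaning of the number is known. Deviations of same-numbered arrays correlated between -0.067 and 0.23, and 2 of 5 DMPT arrays correlated best with their own number. A check on 5 pairs cannot tell whether the number marks a pairing. With the replicate block 1 member probe set was higher (Alox15, adjusted p = 0.0412 in limma) and 1 lower (Hpgd 1376191_at, 0.00551), 10 pathway genes were higher and 2 lower, and 1545 of all probe sets were higher and 1825 lower.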
